A study of Gallus gallus with 6 samples.

Results

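Genes of sterol and fatty acid synthesis were examined in DT40, a line of B cells derived from the chicken's bursa of Fabricius. They comprise the enzymes that build cholesterol from acetyl-CoA, the SREBP factors with the proteins that control them, and the genes that make, desaturate, elongate and activate fatty acids. The rule that picks them uses names and no measured value, although the set was proposed with earlier results of these data known: 26 listed symbols, of which 25 were found on the array, and every gene whose symbol begins with ELOVL (7 genes) or ACSL (5 genes). This gave 37 of the 13009 genes that had a single symbol, measured by 74 probe sets. Where a gene had several probe sets, the one brightest on average over the 6 samples stands for it. IDI1 was not analysed here.

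Total RNA from 3 wild-type and 3 Pax5-deficient (Pax5-/-) samples was hybridised to Affymetrix chicken arrays, 1 array for each sample. All 6 samples come from the female DT40 line grown in the same medium. In the Pax5-deficient cells the gene for PAX5, a transcription factor on which B cell identity depends, had been targeted with the selection cassettes of constructs named Pax5-neo and Pax5-bsr, introduced by electroporation, and stable clones were selected. The labels describe no such step for the wild-type genotype, and effects of selection and of the loss of PAX5 cannot be told apart. It is not stated whether 1 clone gave all 3 Pax5-deficient samples. The submitters name them biological replicates, but separate cultures or clones are not mentioned, and p-values then measure only the spread between these samples. Values are log2 expression, in which a difference of 1 is a doubling.

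Cholesterol is built from acetyl-CoA through mevalonate, farnesyl diphosphate and squalene, and fatty acids are built from the same acetyl-CoA. When sterols run low, SCAP carries the SREBP transcription factors from the endoplasmic reticulum to the Golgi, where they are cut and released to activate genes of both pathways. When sterols are plentiful, the INSIG proteins hold SCAP and SREBP in the endoplasmic reticulum. In mammals INSIG1 is itself an SREBP target.

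The targeted gene and the cell type were checked first. PAX5 has 4 probe sets, of which 1 passed the test: it was at 4.55, 4.41 and 4.30 in the wild-type samples and at 3.86, 3.55 and 3.34, all at background, in the Pax5-deficient samples, a fall of at least 1.47-fold (limma, Benjamini-Hochberg adjusted p = 0.00483). Its position relative to the cassettes is not known here, so it checks the label only in part. The brightest PAX5 probe set was higher by 0.24 in the Pax5-deficient samples, without overlap between the groups, and did not pass (adjusted p = 0.136). The remaining PAX5 probe sets were at background in both groups. The background of an array is the 95% point of its 689 probe sets for virus genomes, on average 3.83. All 9 measured B lineage markers were above background in every sample, and the summed log2 level of that list was 90.5 to 92.6 in wild-type and 83.2 to 83.6 in Pax5-deficient samples. Of the 9, CD72 (-4.02 on the log2 scale), CD79B (-2.29), SH2D6 (-1.20), BTK (-0.87) and IKZF3 (-0.65) fell, and SYK, IKZF1, JCHAIN (0.25 to 0.44) and CD74 (-0.21) did not pass. Of the markers of other lineages, 4 of 10 for T cells (CD4, CD28, BCL11B and GATA3), 3 of 11 for myeloid cells (MARCO, LYZ and TLR4), 1 of 5 for erythroid cells and thrombocytes (GP9) and 3 of 8 for fibroblasts (DCN, LUM and PDGFRA) were at background in both groups. The other measured markers of these lineages were above background in at least 1 sample. Of these, SPI1 (-1.04 on the log2 scale) and CEBPB (-1.75) of the myeloid list and CD3E (-0.51) of the T cell list fell. CD8A (0.52) of the T cell list and COL1A2 (0.50) of the fibroblast list rose, and the rest did not pass. The T cell gene CD3D stood at 11.48 ± 0.09 and 11.19 ± 0.07 (SD, n = 3) in the wild-type and Pax5-deficient samples. Correlations between arrays across probe sets were 0.9946 to 0.9959 among wild-type arrays, 0.9909 to 0.9936 among Pax5-deficient arrays and 0.9781 to 0.9806 across genotypes, and the number of arrays limits the precision.

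In the comparison of the groups, 4 of the 37 genes were higher and 1 was lower in Pax5-deficient cells, and 32 did not pass (limma, adjusted p of 0.05 over all probe sets). The 4 were the sterol enzymes PMVK, FDFT1 and HSD17B7 and the acetyl-CoA producer ACLY, and the 1 was INSIG2. Of all named genes, 6.01% were higher and 9.74% lower by the same rule, so counts of 4 and 1 among 37 genes lay near the background. After quantile normalization of the deposited values, 1059 named genes were higher and 1138 lower, against 782 and 1267 as deposited. The median difference of the 37 genes was 0.11 on the log2 scale, beside 0.03 for all named genes, with 22 differences above and 15 below 0. The groups did not overlap for 5 genes that were higher and 2 that were lower, where the share of named genes was 17.5% and 17.5%. In a bulk sample, fewer cells that express a gene and less RNA per cell cannot be told apart.

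INSIG2, which anchors SCAP in the endoplasmic reticulum, had the largest difference of the 37 genes. It was at 7.87, 7.98 and 8.20 in the wild-type samples and at 6.45, 6.46 and 6.27 in the Pax5-deficient samples. All Pax5-deficient samples lay far below all wild-type samples. It fell by 1.62 ± 0.11 on the log2 scale (SE, 3 samples a group), which is 3.08-fold (limma adjusted p = 3.74e-05), and the difference stayed between -1.70 and -1.53 when any 1 sample was left out. The gene lies on chromosome 7 and has 1 probe set.

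Its paralog INSIG1 did not pass. INSIG1 was at 10.79, 11.29 and 12.12 in the wild-type samples and at 12.10, 11.86 and 11.35 in the Pax5-deficient samples. The groups overlapped, with wild-type replicate 3 the highest of all 6 samples, and the log2 difference was 0.37 (95% interval -0.33 to 1.07; adjusted p = 0.567). Both other probe sets of INSIG1 gave larger differences, 0.63 and 1.19, which did not pass either (adjusted p = 0.305 and 0.134).

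**Figure D1:**
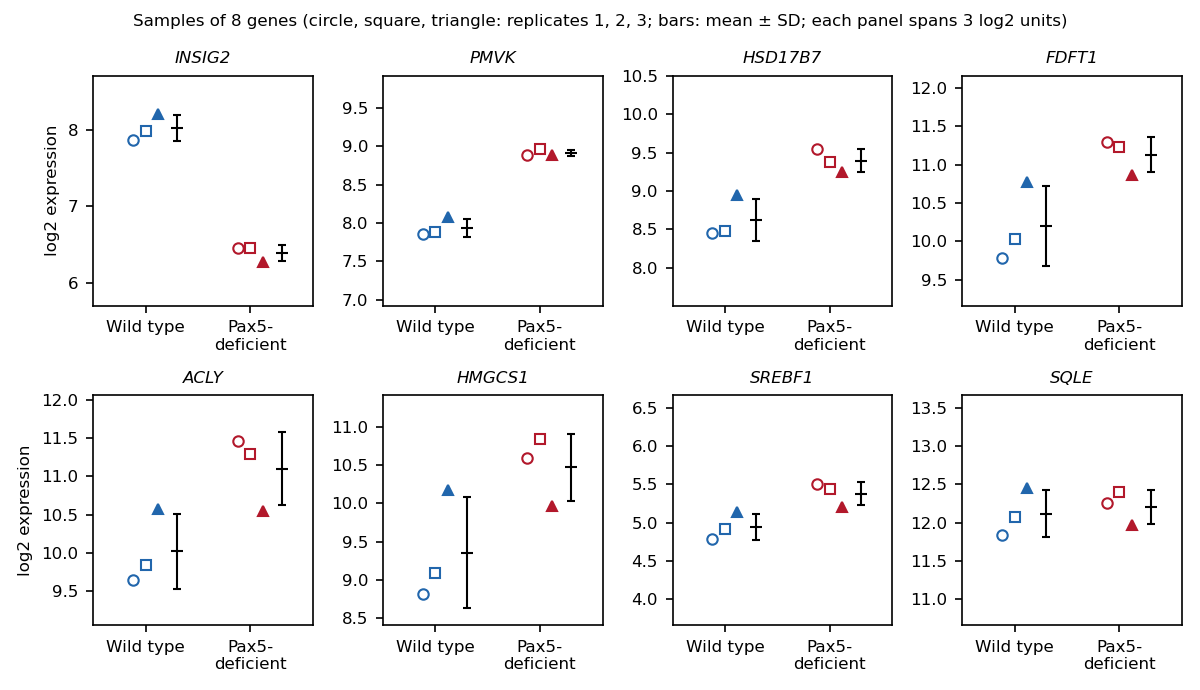
log2 expression of 8 genes in each sample, with wild-type samples in blue and Pax5-deficient samples in red; circles, squares and triangles are replicates 1, 2 and 3, and the bars are mean ± SD of 3 samples. INSIG2 and PMVK are separated by far more than their spread, while in HMGCS1 and ACLY wild-type replicate 3 lies at the level of Pax5-deficient replicate 3.

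None of the transcription factors and their escort SCAP passed. SREBF1, which encodes the SREBP that favours fatty acid genes, was at 4.79, 4.92 and 5.14 in the wild-type and at 5.50, 5.44 and 5.21 in the Pax5-deficient samples. The groups did not overlap, and the log2 difference was 0.43 ± 0.12 (SE; limma adjusted p = 0.053). It passed without wild-type replicate 3 (0.0421) or Pax5-deficient replicate 3 (0.0444), after quantile normalization (0.0366) and with dim probe sets left out (0.0438). It did not pass without any other single sample (0.109 to 0.171), after median centring (0.0725) or with a replicate block (0.0957). Nor did it pass with a variance trend (0.075), that trend with robust fitting (0.0735) or the mean of probe sets (0.259, with a difference of 0.15). The other probe sets of SREBF1 differed by -0.07 and 0.09. SREBF2, which encodes the SREBP that favours sterol genes, was at 10.39, 10.42 and 10.64 and at 10.54, 10.39 and 10.27. Its groups overlapped, and the difference was -0.08 (95% interval -0.33 to 0.16). SCAP was at 6.87, 6.83 and 6.87 and at 7.15, 6.97 and 6.90, so that its groups just missed each other with a difference of 0.15 (95% interval -0.06 to 0.36).

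Among the 7 enzymes measured from acetyl-CoA to squalene, 2 rose and none fell, where 6.01% of all named genes rose and 9.74% fell. PMVK, the kinase that makes diphosphomevalonate, was at 7.86, 7.88 and 8.07 in the wild-type and at 8.88, 8.96 and 8.88 in the Pax5-deficient samples. Both groups were tight and far apart, and the rise of 0.97 ± 0.09 on the log2 scale (SE, 3 samples a group), which is 1.96-fold, passed with every sample left out in turn (limma adjusted p = 0.000244; 0.000672 to 0.00288 with 5 samples). FDFT1, the squalene synthase that commits farnesyl diphosphate to sterols, was at 9.78, 10.03 and 10.78 and at 11.29, 11.23 and 10.87. Wild-type replicate 3 came close to Pax5-deficient replicate 3 without crossing it. The rise was 0.93 ± 0.24 (limma adjusted p = 0.0373). Of the fits with 1 sample left out, it passed only in that without wild-type replicate 3 (1.22, adjusted p = 0.0033). Without any other single sample it did not pass (0.0528 to 0.149). FDFT1 passed after quantile normalization (0.0274) or median centring (0.0468) and with a variance trend (0.017). It also passed with dim probe sets left out (0.0256) or the mean of probe sets (0.0326). With that trend and robust fitting (0.0509) or a replicate block (0.0588) it did not pass.

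HMGCS1, the synthase that makes HMG-CoA, had the largest positive difference of the 37 genes and did not pass. It was at 8.82, 9.09 and 10.18 in the wild-type samples and at 10.59, 10.84 and 9.97 in the Pax5-deficient samples. Wild-type replicate 3 stood above Pax5-deficient replicate 3, and 2 wild-type samples lay far below all the others. The log2 difference was 1.10 ± 0.34 (limma adjusted p = 0.0794). It was 1.51 and passed without wild-type replicate 3 (adjusted p = 0.0086), and HMGCS1 also passed with a variance trend (0.0452). HMGCS1 did not pass without any other single sample (0.0657 to 0.259) or under the other alternatives (0.0526 to 0.195). The thiolase ACAT2 (0.10), the decarboxylase MVD (0.40) and the farnesyl diphosphate synthase FDPS (0.26) had positive differences, and mevalonate kinase MVK a negative one (-0.41). None of these passed, with adjusted p of 0.199 to 0.823. MVK was at 9.64, 9.61 and 10.16 against 9.62, 9.59 and 8.99, so that replicates 1 and 2 of both groups were alike and the replicates numbered 3 lay apart on opposite sides. A second MVK probe set was at 8.76, 8.78 and 9.14 against 8.70, 8.64 and 8.30, lower in all Pax5-deficient samples. Its difference of -0.35 did not pass (limma adjusted p = 0.187). FDPS and PMVK both lie on chromosome 25, where the median difference of 131 genes was 0.036.

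Among the 7 enzymes from squalene to cholesterol, HSD17B7 rose and none fell, where 6.01% of all named genes rose and 9.74% fell. HSD17B7, a ketone reductase of the demethylation steps, was at 8.45, 8.48 and 8.94 in the wild-type and at 9.54, 9.38 and 9.24 in the Pax5-deficient samples. The groups did not overlap, and the rise was 0.76 ± 0.15 on the log2 scale (SE, 3 samples a group), which is 1.70-fold (limma adjusted p = 0.0105; 0.0557 without wild-type replicate 2). A second probe set of HSD17B7 rose by the same 0.76 (adjusted p = 0.00356). SQLE, the epoxidase of squalene, was at 11.84, 12.07 and 12.46 against 12.26, 12.40 and 11.97. Its groups overlapped, and the difference was 0.09 (95% interval -0.29 to 0.47).

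The cyclase LSS (-0.25), the decarboxylating dehydrogenase NSDHL (-0.14) and the late reductase DHCR7 (-0.01), had differences below 0, and the desaturase SC5D (0.33) and the lanosterol demethylase CYP51A1 (0.19) above 0. None of these passed, with adjusted p of 0.281 to 0.983. DHCR7 was at 9.76, 9.91 and 10.58 in the wild-type and at 10.12, 10.25 and 9.84 in the Pax5-deficient samples, with the highest value in wild-type replicate 3. SC5D was at 7.84, 7.74 and 8.64 and at 8.44, 8.62 and 8.16. Without wild-type replicate 3 its difference was 0.61 and passed (adjusted p = 0.0467). CYP51A1 was close to background in every sample, at 3.78 to 4.01 and at 4.00 to 4.10.

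**Figure D2:**
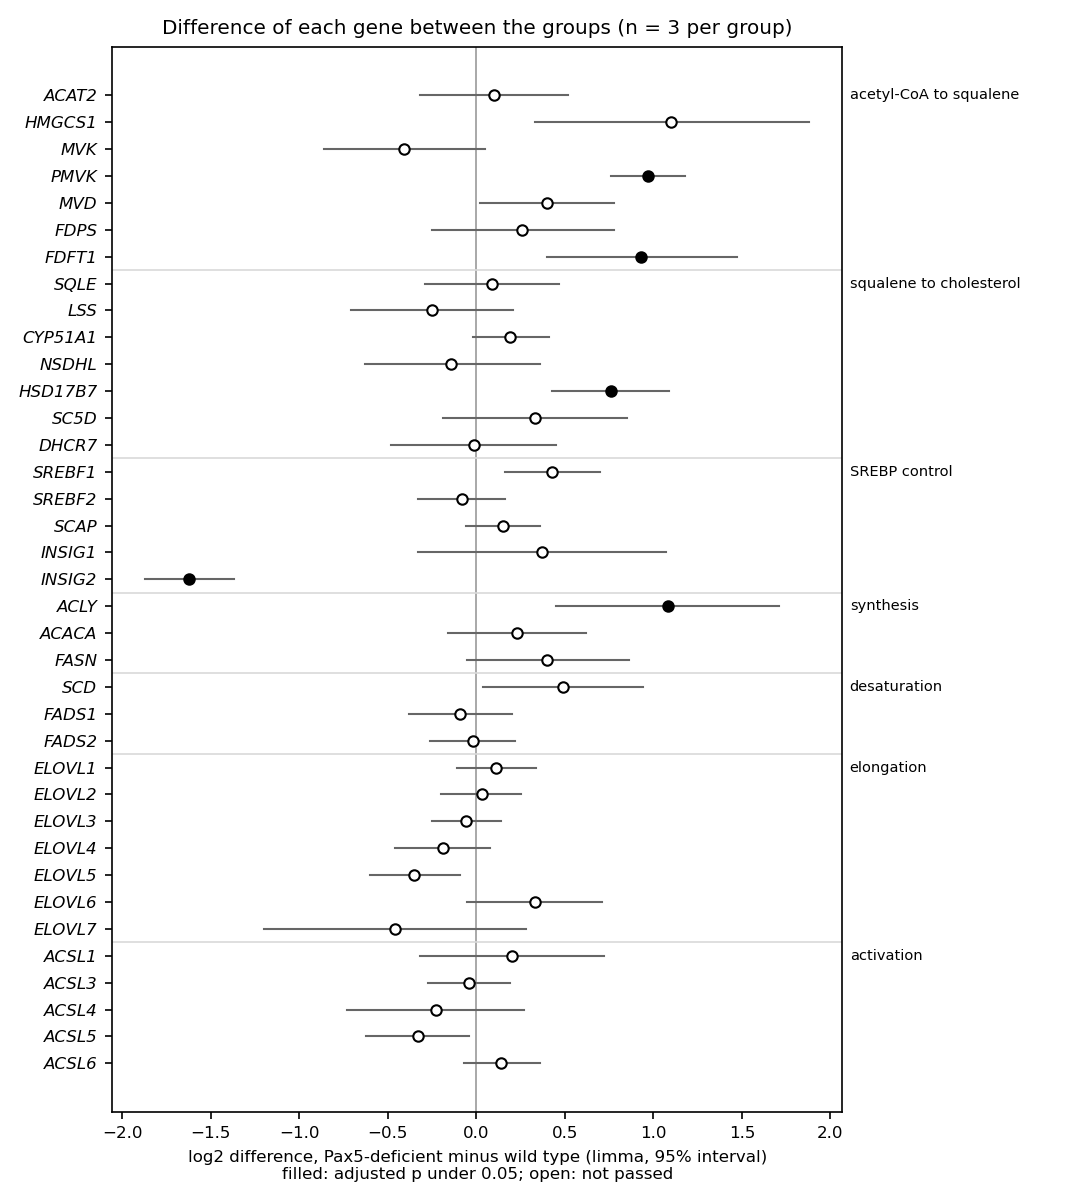
log2 difference of each of the 37 genes, Pax5-deficient minus wild type, with limma's 95% interval; filled points passed an adjusted p of 0.05. INSIG2 stands alone on the left at -1.62, and the 4 genes that rose lie between 0.76 and 1.08.

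Of the genes that make fatty acids, ACLY rose. ACLY, which splits citrate into the acetyl-CoA that both pathways use, was at 9.65, 9.84 and 10.57 in the wild-type and at 11.46, 11.29 and 10.55 in the Pax5-deficient samples. Wild-type replicate 3 and Pax5-deficient replicate 3 were level, and the other samples were well apart. The rise was 1.08 ± 0.28 on the log2 scale (SE, 3 samples a group), which is 2.11-fold (limma adjusted p = 0.0408). The test was no longer passed when replicate 1 or 2 of the wild type, or replicate 1 or 2 of the Pax5-deficient samples, was left out (adjusted p = 0.138, 0.156, 0.125 and 0.087), and a second probe set differed by 1.21 (adjusted p = 0.0508).

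ACACA, the carboxylase of the committed step, was at 8.06, 8.15 and 8.45 against 8.77, 8.48 and 8.10, a difference of 0.23 (95% interval -0.16 to 0.62). FASN, the synthase that builds palmitate, was at 9.29, 9.46 and 9.92 against 10.35, 9.84 and 9.69, a difference of 0.40 (95% interval -0.05 to 0.86). Both overlapped between the groups and neither passed. SCD, the desaturase that makes oleate, was at 6.51, 6.81 and 7.36 against 7.41, 7.56 and 7.17. Its difference of 0.49 did not pass (limma adjusted p = 0.186), but was 0.72 and passed without wild-type replicate 3 (adjusted p = 0.0272). The desaturase FADS2 of polyunsaturated fatty acids was at background in both groups, and FADS1, of the same pathway, was near it, at 3.80 to 4.32 and at 3.91 to 3.98.

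None of the 7 elongases and none of the 5 acyl-CoA synthetases passed (limma adjusted p = 0.093 to 0.918). Of all named genes, 6.01% were higher and 9.74% lower. An unadjusted p under 0.05 was reached by 1 of the elongases and 1 of the synthetases, and by 3920 of the 13009 named genes. ELOVL2, ELOVL3 and ELOVL4 were at background in both groups. ELOVL5, which elongates polyunsaturated chains, was at 9.82, 9.75 and 9.87 in the wild-type and at 9.65, 9.49 and 9.26 in the Pax5-deficient samples. The groups did not overlap, and the difference of -0.35 ± 0.11 (SE) did not pass (adjusted p = 0.093; 0.0408 without Pax5-deficient replicate 1). ELOVL6, which extends palmitate, differed by 0.33 (95% interval -0.05 to 0.71), and its dimmest probe set by 0.73 (adjusted p = 0.131). ELOVL1, an elongase of saturated very long chains, differed by 0.11.

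ELOVL7, an elongase of long chains, was at 8.57, 8.55 and 8.50 in the wild-type samples and at 8.72, 7.17 and 8.35 in the Pax5-deficient samples. Pax5-deficient replicate 2 alone was low, and without it the difference was 0.00 instead of -0.46. The acyl-CoA synthetases attach CoA to fatty acids before these are used. ACSL1 was at 4.09, 3.69 and 3.76 against 3.62, 4.62 and 3.91, and the same replicate 2 was its highest sample. ACSL4, which prefers arachidonate, was at 7.93, 8.33 and 8.77 against 8.33, 8.26 and 7.75, a difference of -0.23. ACSL5 differed by -0.33 (adjusted p = 0.166) on its brightest probe set, while both dimmer ones fell. The first fell by 0.67 on the log2 scale (adjusted p = 0.00665), and the second fell to background, at least 1.10-fold (adjusted p = 0.0375). ACSL3 and ACSL6 differed by -0.04 and 0.14. ACSL3 lies on chromosome 9, whose 390 genes had a median difference of 0.157, the highest among the chromosomes of these genes. Besides those of ACSL5 and HSD17B7, none of the 37 further probe sets of these genes passed.

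The spread within each group was wide for sterol genes, and it was shared. Over the 14 sterol enzymes the median SD was 0.336 in the wild-type and 0.235 in the Pax5-deficient samples, beside 0.106 and 0.147 over the 10140 named genes above background in at least 1 sample. All 14 sterol enzymes were highest within the wild type in replicate 3, and all 14 were lowest within the Pax5-deficient samples in replicate 3 (PMVK only by less than the rounding of the values given). Both held together for 14.3% of the 10140 genes. This pattern, and the counts and ranks of it below, were chosen after the values had been seen. They are a description, and no test was made on them. Replicate numbers carry no order, and the labels give wild-type and Pax5-deficient replicate 3 nothing in common but the number.

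In size this shift exceeded the median difference between the groups, although the measures are unlike. Wild-type replicate 3 exceeded the mean of the other wild-type samples by a median of 0.58 on the log2 scale over the 14 enzymes, against 0.01 over the 10140 genes. Pax5-deficient replicate 3 differed from the mean of the other Pax5-deficient samples by a median of -0.38, against -0.04. The median difference between the groups was 0.22 for these enzymes. That is a median of signed differences, from -0.41 to 1.10, between group means that include the same replicates numbered 3. The shift and this difference are therefore neither like measures nor independent. In a ranking of the 10140 genes by their excess in wild-type replicate 3, HMGCS1 was in place 6 with 1.23 and INSIG1 in place 12 with 1.07, and 8 of the 37 genes were among the first 50.

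The same pattern was counted in the other genes. Wild-type replicate 3 was highest and Pax5-deficient replicate 3 lowest for ACLY, ACACA, FASN and SCD, and for 4 of the 5 control genes, INSIG1, INSIG2, SREBF1 and SREBF2. The 9 elongases and acyl-CoA synthetases above background were mixed: ELOVL5, ELOVL6, ACSL3 and ACSL4 showed it and 5 did not. Of the further genes above background described at the end, it held for 3 of 7 sterol and isoprenoid enzymes (MSMO1, IDI2 and ERG28). It held for 2 of 15 genes of sterol uptake, storage and efflux (STARD3 and STARD4). For genes listed for SREBP processing, transport or control it held in 0 of 14. For genes of fatty acid supply and lipid storage it held in 4 of 26 (SLC25A1, AGPAT3, LPIN1 and PLIN2). All but the first of these shares lay near or below that of all genes. RMA, the submitters' processing method, levels the arrays, so a likeness in overall level was largely built in. It cannot show whether an array differed before processing. With that limit, the arrays of the replicates numbered 3 were like the others in overall level. Their medians of 3.956 and 3.980 lay within the range of 3.948 to 4.016, and the share of probe sets above background was 54.6% and 52.9%, within the range of 52.4% to 55.0%. The mean level of the T cell markers was 4.64 in wild-type replicate 3, against 4.64 and 4.70 in the other wild-type samples, and that of the myeloid markers 4.82 against 4.83 and 4.74. The mean of the B lineage markers was 10.06 there, against 10.20 and 10.28, and that of the erythroid and thrombocyte markers 4.02 against 4.12 and 4.06. The fibroblast markers were at 3.99 against 4.22 and 4.07. In Pax5-deficient replicate 3 the T cell markers were at 4.61, against 4.67 and 4.63 in the other Pax5-deficient samples. There the myeloid markers were at 4.62 against 4.65 and 4.51, and the B lineage markers at 9.26 against 9.29 and 9.24. The erythroid and thrombocyte markers were at 4.25 against 4.38 and 4.24, and the fibroblast markers at 4.15 against 4.21 and 4.20. The part of these marker levels in the pattern was not tested.

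**Figure D3:**
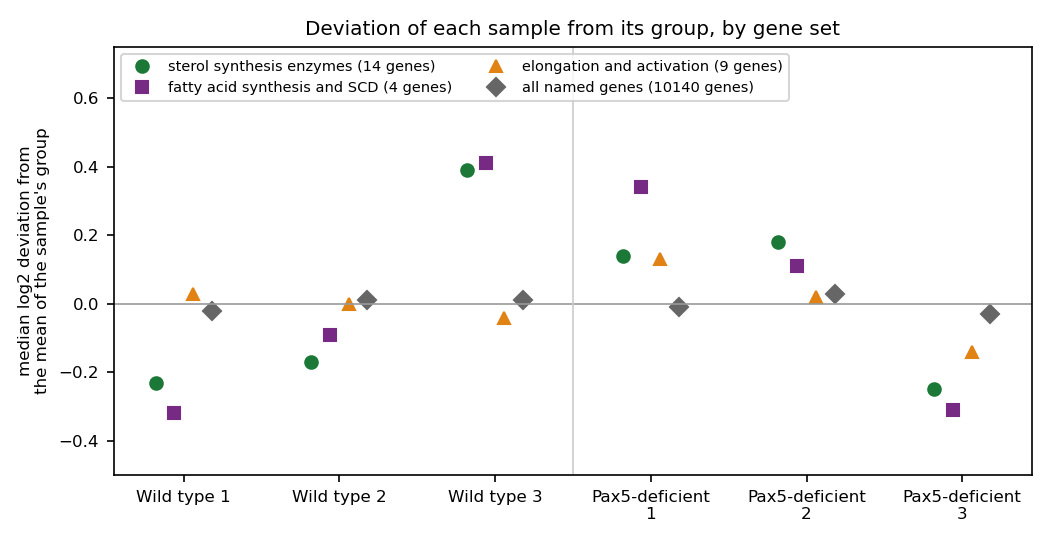
Median deviation of each sample from the mean of its own group, on the log2 scale, for 14 sterol enzymes, for ACLY, ACACA, FASN and SCD, for 9 elongases and acyl-CoA synthetases, and for 10140 named genes above background. The first and second sets stand at 0.39 and 0.41 in wild-type replicate 3 and at -0.25 and -0.31 in Pax5-deficient replicate 3, where all genes stand at 0.01 and -0.03.

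**Figure D4:**
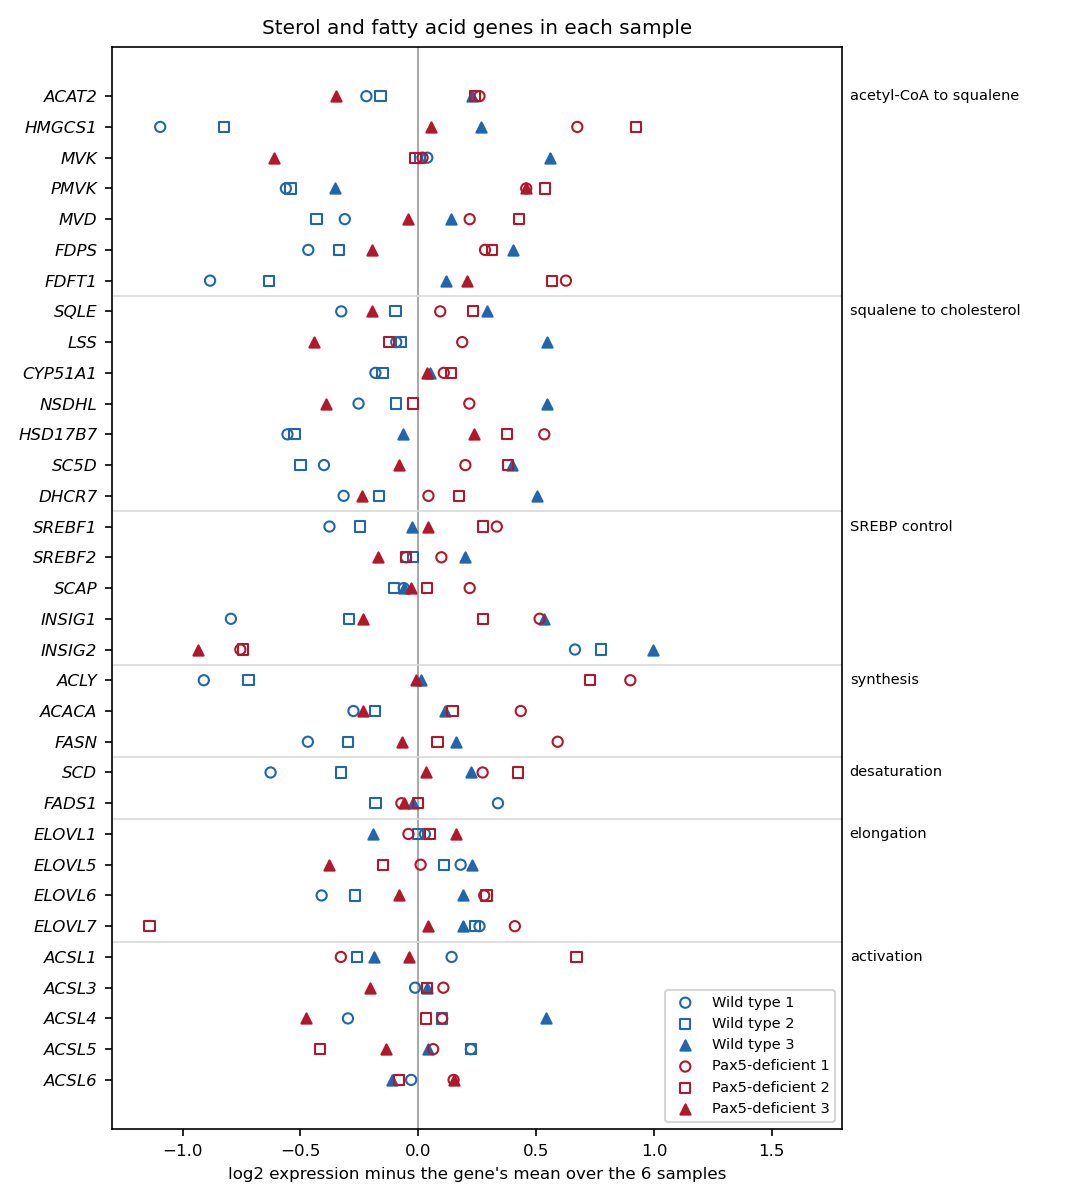
log2 expression of the 33 genes above background in at least 1 sample, each given relative to its own mean over the 6 samples, by role. Filled triangles are the replicates numbered 3: the blue ones lie to the right of the open blue symbols in all 14 sterol enzymes, and the red ones to the left of the open red symbols or, for PMVK, level with replicate 1.

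The count of genes that passed moved with the sample left out. Without wild-type replicate 3, 8 of the 37 genes were higher, where 3.94% of named genes were, and 1 was lower, where 7.14% were. The 8 were ACLY, FDFT1, HMGCS1, HSD17B7, PMVK, SC5D, SCD and SREBF1, and the 1 was INSIG2. Wild-type replicate 3 was the highest wild-type sample for 26 of the 33 genes above background, against 35.8% of the 10140 genes. Leaving it out therefore lowers the wild-type mean of most of these genes by construction, so 3.94% is no reference for the count of 8. Without wild-type replicate 2, of the 37 only PMVK was higher, where 3.43% of named genes were. Without replicate 1 of the wild type, or replicate 1 or 2 of the Pax5-deficient samples, HSD17B7 and PMVK were higher, where 3.82%, 5.53% and 5.84% of named genes were. Without Pax5-deficient replicate 3, ACLY, HSD17B7, PMVK and SREBF1 were higher, where 4.67% of named genes were. Fewer named genes were higher in each of these 6 fits than with all samples.

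The shared spread was then set aside by a description chosen after the values had been seen. The value of each gene was taken relative to its own mean over the 6 samples, and the median of the same quantity over the other sterol enzymes of that sample was subtracted. This step also took out the difference between the groups that the enzymes shared, not only their spread within the groups. The median over all 14 enzymes differed by 0.22 between the group means. The median SD of the 14 sterol enzymes went from 0.34 to 0.14 in the wild-type samples and from 0.24 to 0.16 in the Pax5-deficient samples, with the wild-type SD smaller in 12 of 14 (the exceptions were PMVK and CYP51A1). On this relative scale the groups did not overlap for 9 of the 14 enzymes, 4 higher and 5 lower. Over the 10140 genes, less the median of all 14 enzymes, 3.37% were higher and 15.5% lower without overlap. These shares are no reference for the enzymes, because the step tends by its construction to balance higher against lower among the enzymes and adds their shared spread to genes that lack it, as in ACSL3, whose wild-type SD went from 0.03 to 0.31. The relative values describe only which enzymes differed unequally, and no test was made on them.

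The 4 that were relatively higher were HMGCS1 (by 0.95 on the log2 scale, between group means), PMVK (0.82), FDFT1 (0.78) and HSD17B7 (0.61). The 5 that were relatively lower were MVK (-0.69), LSS (-0.53), NSDHL (-0.41), DHCR7 (-0.29) and SQLE (-0.19). Before the step these 5 differed by -0.41, -0.25, -0.14, -0.01 and 0.09, and none of them had passed. LSS stood at 0.24, 0.26 and 0.28 in the wild-type samples and at -0.03, -0.44 and -0.36 in the Pax5-deficient samples, and its wild-type SD went from 0.36 to 0.02. MVK stood at 0.37, 0.35 and 0.29 and at -0.20, -0.32 and -0.53. The successive kinases MVK and PMVK thus lay on opposite sides, PMVK at -0.25, -0.37 and -0.64 and at 0.25, 0.29 and 0.66. ACAT2, MVD, FDPS, CYP51A1 and SC5D overlapped between the groups. Outside the sterol enzymes, ACLY (0.87), SCD (0.28) and ELOVL6 (0.11) were relatively higher without overlap, and INSIG2 (-1.84), ELOVL5 (-0.56) and ACSL4 (-0.45) relatively lower.

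**Figure D5:**
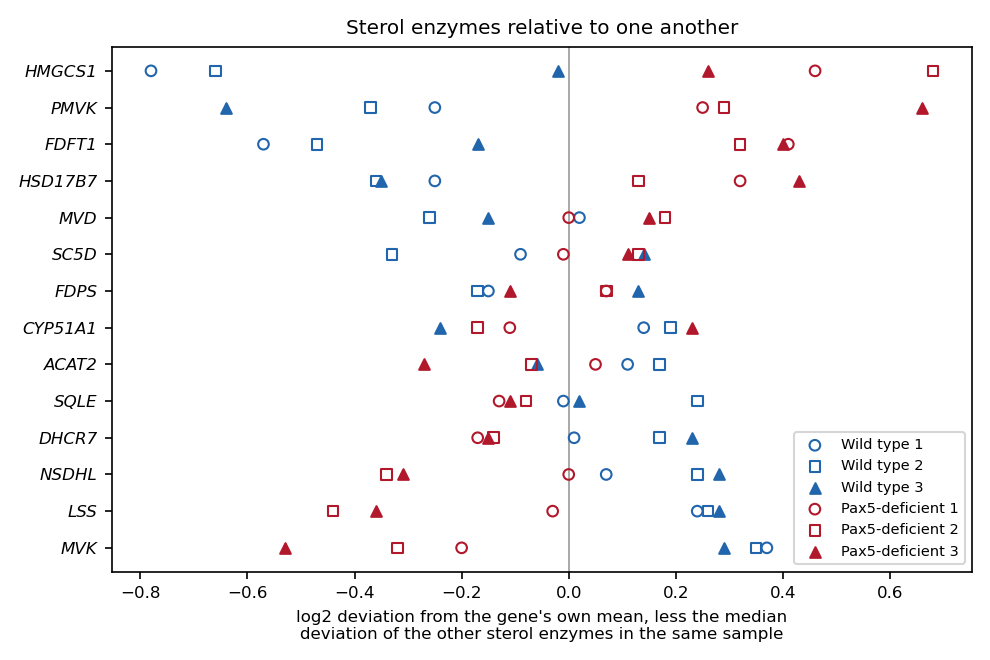
Each of the 14 sterol enzymes in each sample, on the log2 scale relative to its own mean over the 6 samples and to the median of the other sterol enzymes of the same sample. Blue wild-type and red Pax5-deficient symbols change sides from HMGCS1 at the top to MVK at the bottom, and 5 genes in the middle overlap.

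Other genes of the pathways were counted from lists chosen by function. None of 7 further sterol and isoprenoid enzymes passed, with differences of -0.26 to 0.44. An unadjusted limma p under 0.05 was reached by 1 of these 7 and by 3920 of the 13009 named genes. Of 20 measured genes of sterol uptake, transport, storage and efflux 1 rose, 2 fell and 17 did not pass, with a median difference of 0.06. These counts lay near the shares of all named genes, 6.01% higher and 9.74% lower. NPC2, which hands cholesterol out of the lysosome, was at 6.47, 6.86 and 6.88 in the wild-type and at 7.39, 7.45 and 7.49 in the Pax5-deficient samples. The rise of 0.71 ± 0.12 on the log2 scale (SE, 3 samples a group; adjusted p = 0.0061) came with no overlap and passed with each sample left out in turn. SOAT1, which esterifies cholesterol for storage, was at 7.71, 7.81 and 7.64 against 7.33, 7.19 and 7.10. It fell by 0.51 ± 0.10 (adjusted p = 0.00938; 0.0502 without wild-type replicate 2), and its other probe sets did not pass. MYLIP, the ligase that targets the LDL receptor, fell to background, at least 1.12-fold (adjusted p = 0.0387), a call lost without any 1 sample other than wild-type replicate 2 (0.053 to 0.137).

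Of 14 genes listed for SREBP processing, transport or control, 1 rose, 2 fell and 11 did not pass, with a median difference of -0.23. Such counts lay near the shares of all named genes, 6.01% higher and 9.74% lower. Those that passed were components of the COPII coat, which buds vesicles for all secretory cargo. SEC24D was at 6.58, 6.45 and 6.41 in the wild-type and at 8.26, 7.95 and 7.43 in the Pax5-deficient samples, and SAR1B at 11.16, 11.24 and 11.19 against 10.44, 10.51 and 10.43, without overlap in either. SEC24D rose by 1.40 ± 0.18 on the log2 scale (limma adjusted p = 0.00153), SAR1B fell by 0.73 ± 0.08 (0.000585) and SEC24A fell by 0.59 ± 0.11 (0.0111). All 4 other probe sets of SEC24D rose as well, by 0.72 to 1.44. SEC24A no longer passed when wild-type replicate 2 or 3 was left out (0.0548 and 0.0512), and its other probe sets did not pass. The site proteases MBTPS1 and MBTPS2, which release SREBP in the Golgi, differed by 0.28 and -0.17 and did not pass.

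Of 33 further genes of fatty acid supply and lipid storage, 1 rose, 1 fell and 31 did not pass, with a median difference of 0.05. Both counts lay near or below the shares of all named genes, 6.01% higher and 9.74% lower. FABP5, a carrier of fatty acids in the cytosol, was at 7.82, 7.51 and 7.56 in the wild-type and at 3.54, 4.14 and 3.42 in the Pax5-deficient samples. Only Pax5-deficient replicate 2 was above its array's background. FABP5 fell by 3.93 ± 0.18 on the log2 scale (SE, 3 samples a group), which is 15.3-fold (limma adjusted p = 3.7e-06), a size that rests on 2 Pax5-deficient samples at background and is not exact. Its second probe set was at background in both groups. ACOT7, a thioesterase that frees fatty acids from CoA, was at 8.47, 8.48 and 8.28 against 9.51, 8.70 and 9.71. It rose by 0.90 ± 0.23 (adjusted p = 0.0366), a call lost without any 1 sample other than Pax5-deficient replicate 2 (0.0918 to 0.127).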

How the data were processed

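RNA of 6 samples was measured on 1 Affymetrix array each. The deposited values are log2 expression per probe set. RMA is the method that the submitters' processing notes name, with no version or software. RMA shrinks differences of dim probe sets, so their folds are understated. The table held 38535 probe sets and 0 missing values; 96 array controls were left out and 38439 tested. Groups came from the titles. Gene names came from the platform annotation, joined to the RefSeq table of GRCg7b through Entrez IDs (27168 probe sets had 1 symbol), which also gave chromosomes; no sequence table was used here.

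Each probe set was fitted with limma 3.58.1 in R 4.3.3 (group as the only term, eBayes, two-sided) and adjusted by Benjamini-Hochberg over the 38439. Standard errors and intervals use limma's moderated variance. The fit was tested on simulated data with noise drawn separately for each probe set, so spread shared between genes was not simulated. The members and lists were chosen with earlier results of these data known. All members are named; values by sample are given for those that passed, 10 control and rate-setting genes, and those with an SD over 0.5 in a group, plus others the text compares; of each list, up to 3 genes in each direction that passed. Alternatives were quantile normalization, median centring, a variance trend, that trend with robust fitting, leaving out dim probe sets, the mean of probe sets, a replicate block and leaving out each sample.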

Additional observations from a re-analysis of the deposited data

How the results depend on the processing

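The 5 calls among the 37 genes kept their direction under every alternative run, and INSIG2 and PMVK passed in all of them. Of 475 values of single genes under an alternative, 451 kept their side of the threshold, 10 newly passed and 14 no longer passed. The count of genes that were higher was 4 as reported, 2 with a variance trend and robust fitting, 5 after quantile normalization or with dim probe sets left out (SREBF1 was added), 5 with a variance trend alone (HMGCS1 was added), and 1 to 8 with 1 sample left out; that of genes that were lower was 1, 2 with the mean of probe sets (ACSL5 was added), and 1 to 2 with 1 sample left out. With the replicate number as a block, 2 of the 37 genes were higher (HSD17B7 and PMVK; ACLY and FDFT1 had adjusted p of 0.0784 and 0.0588) and 2 further lipid genes were lower. The labels do not say that the numbers pair the samples, and the main fit has no block. Deviations of samples with the same number correlated at 0.08, 0.08 and -0.04 across genes, and those with unlike numbers at -0.11 to 0.06. Such small values do not decide whether the numbers pair the samples. The list of uptake, storage and export genes had 2 higher after quantile normalization, and 1 lower with dim probe sets left out or with the mean of probe sets. The list of further lipid genes had 2 higher in both of the latter settings. With 1 sample left out, 1 of the uptake, storage and export genes was lower, and 0 to 1 of the further lipid genes were higher. Of the genes listed for SREBP processing, transport or control, 1 to 3 were lower. Over the same 6 fits 2490 to 4172 probe sets passed, against 4085, with 446 to 760 named genes higher and 840 to 1337 lower. Genes near background, such as CYP51A1 and FADS1, could show little change on these arrays.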

Other observations

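The genes with the largest excess in wild-type replicate 3 over the other wild-type samples were looked at after the values had been seen, with no test. Beside HMGCS1 and INSIG1, the first 20 of 10140 held STARD4, a carrier of sterols in the cytosol, in place 3 (1.34 on the log2 scale) and LPIN1, a phosphatase of glycerolipid synthesis, in place 4 (1.25). Both were also lower in Pax5-deficient replicate 3 than the mean of the other Pax5-deficient samples, by -0.49 and -0.30. RDH11, a retinal reductase, was in place 5 (1.23) and differed by -1.19 in Pax5-deficient replicate 3. CHAC1 and ATF3, known as genes of the amino acid and stress response, were in places 1 and 9, with 1.87 and 1.19, and differed by 0.08 and -0.40 in Pax5-deficient replicate 3. Between the groups STARD4 and LPIN1 differed by 0.24 and 0.36, and neither passed (limma adjusted p = 0.762 and 0.562).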
